A study of Arabidopsis thaliana with 12 samples.

Results

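The salicylate pathway and its pathogenesis-related (PR) marker genes were followed through 4 groups of Arabidopsis thaliana siliques. The list held 9 loci, PR1, PR2, PR5, ICS1, EDS5, PAD4, NPR1, CBP60G and SARD1. A locus entered when the annotation of the array, or else the table of called genes given with the study, assigned it a probe set for 1 gene. By this rule 3 of the 9 loci were found among the 22746 tested probe sets, namely PR1 (AT2G14610, probe set 266385_at), PR2 (AT3G57260, probe set 251625_at, also named BGL2) and PR5 (AT1G75040, probe set 259925_at). The other 6 loci, ICS1, EDS5, PAD4, NPR1, CBP60G and SARD1, were not analysed here. All 3 PR genes were named only through the table of called genes, and a gene entered that table by passing in at least 1 comparison on these same arrays. Counts of calls among them are therefore no independent evidence of a change.

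RNA came from siliques of wild-type Col-0 plants (WT) and of plants of the transgenic line L1-1 in the third generation (AtHb1), which express the class-1 hemoglobin gene AtHb1 from the seed-specific LeB4 promoter. Whole plants 45 days old were kept in darkness for 1 h at 21% oxygen (control) or at 10.5% oxygen (hypoxia), and siliques 11 to 12 days after pollination were pooled, with 70 to 80 siliques in each of 3 samples per group. AtHb1 here is a single transgenic line, so the effect of its insertion cannot be told apart from that of the transgene. Each sample was hybridized to 1 Affymetrix ATH1 array, a microarray on which every gene is read by a set of probes, and the number of arrays limits the precision. Values are log2 signals as RMA gives them, with the arrays brought to a common scale, so that a difference of 1 is a 2-fold change. They are relative within a probe set, and levels of different genes are not compared.

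Salicylate is a defence hormone of plants. ICS1 makes its precursor in the chloroplast, EDS5 exports that precursor, CBP60G and SARD1 are transcription factors that switch on ICS1, and PAD4 acts upstream with EDS1. NPR1 binds salicylate and, with TGA transcription factors, switches on the PR genes. PR1, a small secreted protein, PR2, a secreted beta-1,3-glucanase that cuts a wall polymer of fungi, and PR5, a thaumatin-like protein, are the standard transcript markers of this response in leaves.

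Before the PR genes, several features of the arrays bear on the comparisons. The AtHb1 probe set had group means of 11.49 (control) and 10.72 (hypoxia) in the AtHb1 line, and of 6.003 and 9.09 in WT. AtHb1 control replicate 1 was the lowest of its group, at 10.48. The mean signal of the 3' probe sets minus that of the 5' probe sets of the control transcripts, a measure of RNA quality and labelling, spanned 0.857 to 1.071 on the 6 WT arrays and 1.16 to 1.539 on the 6 AtHb1 arrays, without overlap. The signal of bioC, a bacterial transcript among the controls of the array, also differed by genotype without overlap. It spanned 7.10 to 7.53 on the WT arrays and 8.13 to 9.75 on the AtHb1 arrays, with AtHb1 control replicate 1 at 8.13. Its part in the PR values was not tested. Correlations between replicate arrays over all probe sets lay between 0.9932 and 0.9983. None of the 11 developing-seed markers first listed was matched, and 7 seed genes added after the values were seen were named by the annotation. Their mean log2 signals over the 12 arrays ranged from 5.0 for the late embryogenesis gene AT3G22490 to 13.88 for the oleosin gene AT3G01570, and 1 of the 7 was below 6 in each group. In bulk siliques, fewer cells of a type and less RNA per cell cannot be told apart.

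PR1 was highest in AtHb1 control and lowest in WT control. Its log2 signal was 6.18, 6.26 and 6.37 in the WT control replicates and 7.08, 7.11 and 7.01 in the WT hypoxia replicates. In AtHb1 control it was 6.70, 8.50 and 7.61, and in AtHb1 hypoxia it was 5.998, 6.817 and 6.746. The WT groups were tight and did not overlap, whereas each AtHb1 group spread widely. The group means were 7.61 ± 0.90 in AtHb1 control, 7.07 ± 0.05 in WT hypoxia, 6.52 ± 0.45 in AtHb1 hypoxia and 6.27 ± 0.09 in WT control (SD, n = 3 each). Of neighbours in this order, AtHb1 control overlapped with WT hypoxia, and AtHb1 hypoxia overlapped with WT control, while WT hypoxia lay above AtHb1 hypoxia on every array. The hypoxia groups stood apart for 50.9% of all probe sets, in either direction.

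PR2 was highest in WT hypoxia and lowest in WT control. It read 8.71, 8.30 and 8.40 in WT control, and 9.84, 9.93 and 9.88 in WT hypoxia. It read 8.57, 9.94 and 9.39 in AtHb1 control, and 8.80, 9.48 and 8.95 in AtHb1 hypoxia. AtHb1 control replicate 1 lay inside the range of WT control, while replicate 2 reached the level of WT hypoxia. The group means were 9.88 ± 0.04 in WT hypoxia, 9.30 ± 0.69 in AtHb1 control, 9.08 ± 0.36 in AtHb1 hypoxia and 8.47 ± 0.22 in WT control (SD, n = 3 each). WT hypoxia overlapped with AtHb1 control, and AtHb1 control with AtHb1 hypoxia. AtHb1 hypoxia lay above WT control on every array, but only narrowly where they came closest (8.799 against 8.715). The share of all probe sets standing apart was not computed for this pair. For the pairs that were compared it lay between 36% and 50.9%, in either direction.

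PR5 was highest in AtHb1 control and lowest in WT control. It read 8.05, 7.44 and 8.38 in WT control, and 9.18, 9.27 and 9.22 in WT hypoxia. It read 8.74, 9.92 and 9.38 in AtHb1 control, and 8.24, 9.33 and 8.78 in AtHb1 hypoxia. WT control replicate 2 was the lowest of the 12 arrays for PR5. The group means were 9.35 ± 0.59 in AtHb1 control, 9.23 ± 0.05 in WT hypoxia, 8.78 ± 0.54 in AtHb1 hypoxia and 7.95 ± 0.47 in WT control (SD, n = 3 each), and every group overlapped with its neighbour in this order.

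**Figure D1:**
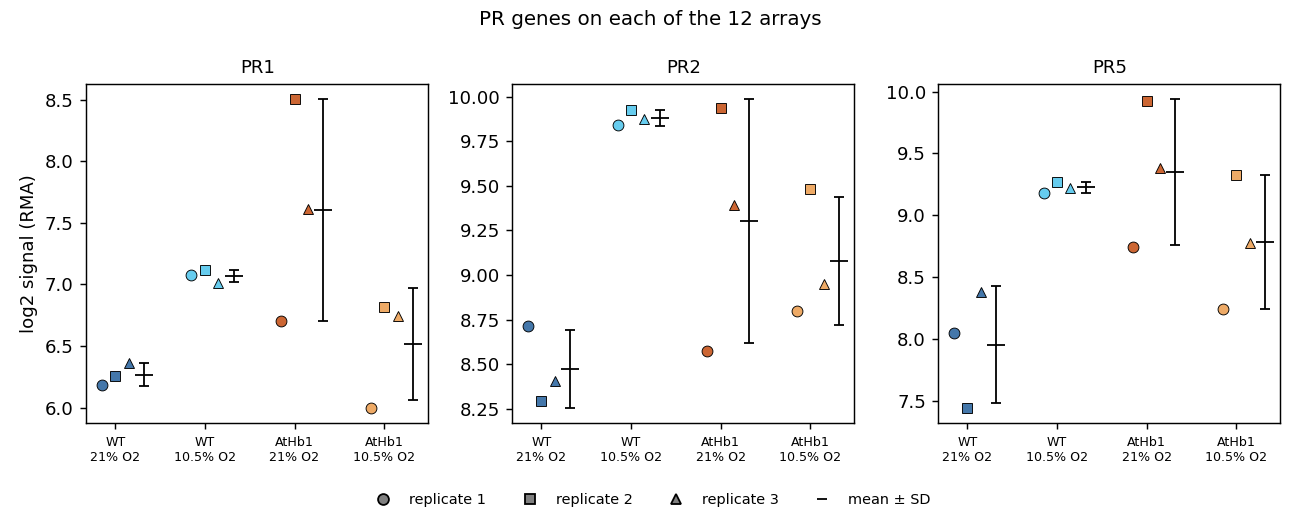
Log2 signal (RMA, vertical axis) of PR1, PR2 and PR5 on the 12 arrays, by genotype and oxygen (horizontal axis). Symbols are the replicates and bars the mean ± SD (n = 3). The WT hypoxia arrays lie close together for all 3 genes, whereas AtHb1 replicate 2 is the highest and AtHb1 replicate 1 the lowest of its group in both treatments.

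The spread of the PR genes within groups was uneven. In WT hypoxia their SDs of 0.04 to 0.05 were below the median of all probe sets, 0.08. In WT control the SD of PR1 exceeded that of 48.4% of probe sets, that of PR2 92.1% and that of PR5 99.6%. In AtHb1 control the SD of PR1 exceeded that of 99.9% of probe sets, that of PR2 99.8% and that of PR5 99.7%. In AtHb1 hypoxia these shares were 99% for PR1, 97.6% for PR2 and 99.6% for PR5. The genes spread in the same arrays. Replicate 2 was the highest and replicate 1 the lowest for all 3 in both AtHb1 groups, an order that 3.05% of all probe sets had in both groups. The mean over the 3 PR genes was 8.01, 9.45 and 8.79 in the AtHb1 control replicates and 7.68, 8.54 and 8.16 in the AtHb1 hypoxia replicates. The 3' minus 5' signal was also highest in replicate 2 of both groups, at 1.539 and 1.498. It was lowest in replicate 3 of AtHb1 control, at 1.341, and in replicate 1 of AtHb1 hypoxia, at 1.16.

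The comparison of AtHb1 with WT at control asked how the hemoglobin line differed at normal oxygen. PR1 was higher in AtHb1 by a log2 fold change of 1.34 (SE 0.32, adjusted p = 0.00444 in limma) and PR5 by 1.40 (SE 0.29, adjusted p = 0.00196). PR2 was higher by 0.83 (SE 0.25, adjusted p = 0.0204), which is below the 2-fold limit. A gene was called at an adjusted p under 0.05 and a change above 2-fold, so 2 of the 3 genes were called higher, where 1.2% of all probe sets were called higher and 0.972% lower. PR5 kept its call when any single array was left out (1.11 to 1.70). Without AtHb1 control replicate 2, PR1 was higher by 0.89 and no longer called. Without AtHb1 control replicate 1, PR2 was higher by 1.19 and was called. With the 3' minus 5' signal as a covariate, an alternative chosen after seeing the data, the values turned to -0.41 for PR1 (adjusted p = 0.781), -0.37 for PR2 (adjusted p = 0.77) and -0.07 for PR5 (adjusted p = 0.97). Since that signal separates the genotypes, the covariate and the genotype cannot be fully told apart.

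Under hypoxia the 3 genes lay lower in AtHb1 than in WT, and none was called. The log2 fold change was -0.55 for PR1 (SE 0.32, adjusted p = 0.182), -0.80 for PR2 (SE 0.25, adjusted p = 0.0208) and -0.44 for PR5 (SE 0.29, adjusted p = 0.246). Over all probe sets, 1.74% were called in this comparison, 0.791% higher and 0.95% lower. PR2 passed the p limit, and 1 of 3 genes had an unadjusted p under 0.05, where 48.8% of all probe sets had one. With the hypoxia groups fitted alone in limma, the adjusted p was 0.0363 for PR1, 0.00244 for PR2 and 0.125 for PR5. The log2 fold changes were the same, and none was called. Without AtHb1 hypoxia replicate 2 the value of PR2 was -1.01 and it was called. With the 3' minus 5' signal as a covariate all 3 were called lower, with values of -1.52 for PR1, -1.47 for PR2 and -1.26 for PR5.

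Hypoxia in WT was compared to see how the PR genes moved at 10.5% oxygen without the transgene. PR2 rose by 1.41 (SE 0.25, adjusted p = 0.00127), a 2.65-fold increase, and PR5 rose by 1.27 (SE 0.29, adjusted p = 0.00726), a 2.41-fold increase. PR1 had a value of 0.80 (SE 0.32, adjusted p = 0.105) and did not pass. That SE rests on a spread shared by the 4 groups, including the wide AtHb1 groups. With the WT groups fitted alone in limma, PR1 had an SE of 0.073 and an adjusted p of 3.32e-05. It was then short only of the 2-fold limit. Thus 2 of 3 genes were called higher, where 1.53% of all probe sets were (0.29% lower, 1.82% in all), and each of the 3 hypoxia arrays lay above each control array for all 3 genes, as for 36.2% of all probe sets in either direction. Under limma's trend and robust options PR5 was not called (adjusted p = 0.0536), nor with the 3' minus 5' signal as a covariate, where its value was 0.83.

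Hypoxia in AtHb1 gave negative values. PR1 fell by 1.09 (SE 0.32, adjusted p = 0.0249), while PR2 had a value of -0.22 (SE 0.25, adjusted p = 0.557) and PR5 of -0.57 (SE 0.29, adjusted p = 0.177). Thus 1 of 3 was called lower, where 0.444% of all probe sets were (0.673% higher). For each of the 3 genes the control and hypoxia arrays overlapped, and the value of PR2 was 0.09 without AtHb1 control replicate 2. The PR1 call was lost without AtHb1 control replicate 2 (-0.64), without AtHb1 control replicate 3 (-1.08, adjusted p = 0.0585) and without AtHb1 hypoxia replicate 1 (-0.82). It was also lost when the compared groups were fitted alone (adjusted p = 0.0844), under the trend and robust options (adjusted p = 0.0881), and with array weights (-0.94, adjusted p = 0.0528).

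The difference between these 2 hypoxia responses was tested as the interaction, the change in AtHb1 minus the change in WT. It was -1.89 for PR1 (SE 0.45, adjusted p = 0.0135), -1.63 for PR2 (SE 0.36, adjusted p = 0.00901) and -1.84 for PR5 (SE 0.41, adjusted p = 0.0101). All 3 genes were called, where 1.51% of all probe sets were called in this direction and 0.497% in the other, 2% in all. All 3 kept their calls when any single array was left out, with ranges of -2.34 to -1.44 for PR1, -2.00 to -1.31 for PR2 and -2.14 to -1.55 for PR5. None kept its call under limma's trend and robust options, where the adjusted p was 0.0692 for PR1, 0.0508 for PR2 and 0.0587 for PR5. None kept it with the 3' minus 5' signal as a covariate, where the values were -1.11, -1.10 and -1.19, in the same order. The comparisons share arrays: WT control enters the AtHb1 difference at control as well as the WT hypoxia response, and all 4 groups enter the interaction.

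**Figure D2:**
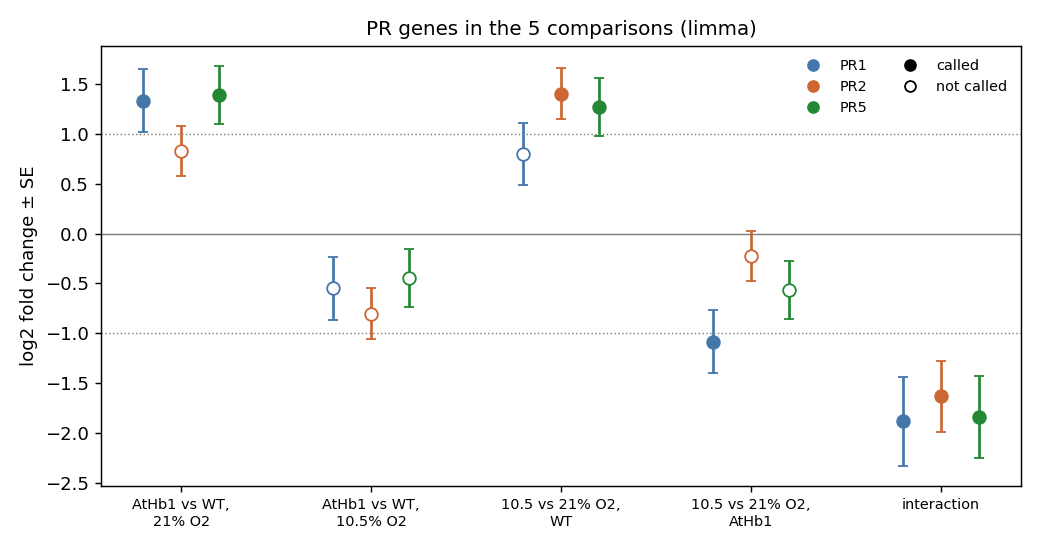
Log2 fold change ± SE from limma (vertical axis) of PR1, PR2 and PR5 in the 5 comparisons (horizontal axis). Filled points were called, open points were not, and dotted lines mark the 2-fold limit. The values lie above 0 for AtHb1 against WT at 21% oxygen and for hypoxia in WT, and below 0 in the other comparisons.

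Markers of tissues also differed between the groups, not all in the order of the PR genes. Their part in the PR values was not tested. The mean over the 7 seed genes named by the annotation lay between 9.694 and 10.119 on the WT control arrays and between 10.615 and 10.657 on those of WT hypoxia. It lay between 10.715 and 11.107 on the AtHb1 control arrays and between 9.812 and 10.462 on those of AtHb1 hypoxia. In this mean WT control was lowest and AtHb1 control highest, as for PR1 and PR5. The 7 genes did not all share that order. The late embryogenesis genes AT5G44310 (7.16 in WT control, 9.78 in AtHb1 control) and LEA4-1 and the storage protein gene CRUD did. The oleosin gene OLEO3 was lowest in AtHb1 control (13.38), and AT3G01570 was highest in WT hypoxia (14.11). AT2G25890 was lowest in AtHb1 hypoxia (8.28) and AT3G22490 in WT hypoxia (4.81). Within AtHb1 control, replicate 1 had the lowest PR signals and the lowest seed mean (10.715). Within AtHb1 hypoxia, replicate 2 had the highest PR signals and the lowest seed mean (9.812). Of 9 markers of silique wall and green tissue 1 was matched, the carbonic anhydrase gene CA1, which was lower in AtHb1 by -1.40 at control and by -2.20 under hypoxia and rose by 1.18 with hypoxia in WT. Of 4 senescence markers 1 was matched, the transcription factor gene ORE1, which was higher in AtHb1 at control by 1.01. All 3 pollen markers were matched. AGP6 and AGP11, which encode arabinogalactan proteins of pollen, were lower in AtHb1 at control by -1.26 and -1.31, and fell with hypoxia in WT by 1.51 and 1.36. The third, AT1G29140, was -0.93 and -0.89 in these comparisons, within the 2-fold limit. Its signal was dim (mean log2 signal below 6 in each group). CA1, ORE1, AGP6 and AGP11 were named only through the table of called genes.

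Around the PR genes, a wider list of 62 salicylate loci was sorted by role, and 21 of them were matched, 14 through the annotation and 7 only through the table of called genes. No gene of salicylate synthesis was among them, of 8 listed. Of the 14 genes named by the annotation, 0 were called at control, under hypoxia between genotypes and for hypoxia in AtHb1. In these comparisons limma called 2.17%, 1.74% and 1.12% of all probe sets, and 3, 4 and 6 of the 14, in this order, had an unadjusted p under 0.05, where 42.5%, 48.8% and 36.3% of all probe sets had one. For hypoxia in WT 1 of the 14 was called higher, where 1.53% of all probe sets were, and in the interaction 1 was called lower, where 1.51% were. The median log2 fold change of the 14 lay between -0.12 and 0.05 over the 5 comparisons, where the median of all probe sets lay between -0.03 and 0.02. The 7 genes of the table were chosen by the study on these arrays, so their calls are no independent evidence. Of these, 4 were called higher in AtHb1 at control, 1 higher and 3 lower in AtHb1 under hypoxia, 1 higher after hypoxia in WT, 0 after hypoxia in AtHb1 (3 with an unadjusted p under 0.05, as for 36.3% of all probe sets), and 2 lower in the interaction.

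Upstream of the hormone, SAG101, a partner of EDS1, was dim (mean log2 signal below 6 in each group) and its changes lay between -0.05 and 0.11. In the receptor complex, NPR2, a relative of NPR1, was dim, and it was lower in AtHb1 under hypoxia by -0.37 (adjusted p = 0.00486), within the 2-fold limit. NIMIN3, which encodes a protein that binds NPR1, read 5.54, 5.65 and 5.82 in WT control and 6.68, 6.75 and 6.67 in AtHb1 control. The groups stood apart, as for 46.4% of all probe sets in either direction. NIMIN3 was higher in AtHb1 by 1.03 (adjusted p = 3.39e-06). The value was 0.97 with each array centred on its median and 0.96 without WT control replicate 1, both short of the limit.

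Among the enzymes that modify salicylate, BSMT1, which makes the volatile methyl ester, had its lowest group mean in WT control and its highest in WT hypoxia, as PR2 had. It read 6.76, 6.92 and 6.77 in WT control, and 7.74, 7.79 and 7.82 after hypoxia. In AtHb1 it read 7.03, 7.96 and 7.64 at control, and 7.19, 7.62 and 7.46 after hypoxia. As for the PR genes, replicate 2 was the highest and replicate 1 the lowest array in both AtHb1 groups. BSMT1 was higher in AtHb1 at control by 0.73 (adjusted p = 0.00461) and after hypoxia in WT by 0.96 (adjusted p = 0.0012), both within the 2-fold limit, and its interaction of -1.09 (SE 0.24, adjusted p = 0.01) was called. That call was lost without AtHb1 control replicate 2 (-0.88), without AtHb1 hypoxia replicate 1 (-0.97), and with the 3' minus 5' signal as a covariate (-0.70, adjusted p = 0.0817). BSMT1 is named by the annotation and not only by the table of called genes.

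MES9, an esterase that releases salicylate from this ester, read 7.97, 8.14 and 8.22 in WT control and 9.30, 9.65 and 9.56 in AtHb1 control. It was higher in AtHb1 by 1.39 (SE 0.10, adjusted p = 4.08e-07), the largest difference at control within the wider list, and by 0.57 under hypoxia, within the limit. DMR6, an oxygenase that hydroxylates salicylate, read 9.68, 9.65 and 9.65 in WT hypoxia and 8.52, 8.75 and 8.69 in AtHb1 hypoxia. It was called lower in AtHb1 under hypoxia at -1.01 (adjusted p = 3.18e-05), close to the limit, and the call was lost without WT hypoxia replicate 1 or without AtHb1 hypoxia replicate 1. UGT76B1, a glucosyltransferase that acts on salicylate, had values of 0.80 in WT (adjusted p = 0.00357) and 0.84 in AtHb1 (adjusted p = 0.00304) with hypoxia. The interaction for UGT76B1 was 0.04 (SE 0.23, adjusted p = 0.947). UGT74F1, which makes the salicylate glucoside, had values between -0.22 and 0.04.

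Of the other salicylate-responsive genes, GRXC9, a glutaredoxin that binds TGA factors, read 6.15, 6.54 and 6.17 in WT control and 7.78, 7.71 and 7.78 in WT hypoxia. It rose by 1.47 (SE 0.13, adjusted p = 2.4e-06), the 1 call among the 14 annotated genes in this comparison. In AtHb1 its hypoxia value was 0.83 (adjusted p = 7.69e-04), within the limit, and the interaction of -0.64 (adjusted p = 0.0402) was also within it. WAK1, a wall-associated receptor kinase, read 8.31, 8.15 and 8.38 in WT control, and 9.67, 9.63 and 9.84 after hypoxia. In AtHb1 it read 9.25, 9.65 and 9.23 at control, and 9.58, 9.78 and 9.61 after hypoxia. WT control stood below the other 3 groups. Over all probe sets it stood apart from AtHb1 control for 46.4% and from WT hypoxia for 36.2%, in either direction. The share against AtHb1 hypoxia was not computed. WAK1 was higher in AtHb1 at control by 1.09 and rose by 1.43 in WT under hypoxia, and its interaction of -1.15 (adjusted p = 4.41e-04) was called. Without AtHb1 control replicate 2 the difference at control was 0.96 and not called. With the 3' minus 5' signal as a covariate that difference was 0.63 (SE 0.24, adjusted p = 0.158 in limma) and also not called. The WAK1 interaction was called under the trend and robust options, where those of the PR genes were not, and with the 3' minus 5' signal as a covariate it was -0.95 and short of the limit.

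LURP1, a gene induced by pathogens, had log2 signals of 9.58, 9.70 and 9.40 in WT control, and of 10.08, 10.09 and 10.04 after hypoxia. In AtHb1 they were 9.05, 10.16 and 9.54 at control, and 8.02, 9.04 and 8.93 after hypoxia. All 3 AtHb1 hypoxia arrays lay below all arrays of the other groups, but the highest of them (9.043) barely so against AtHb1 control replicate 1 (9.045). AtHb1 hypoxia stood apart from AtHb1 control for 36% of all probe sets and from WT hypoxia for 50.9%, in either direction. The share against WT control was not computed. LURP1 was called lower in AtHb1 under hypoxia at -1.41 (SE 0.25, adjusted p = 5.84e-04), and its interaction was -1.43 (SE 0.36, adjusted p = 0.0184). At control, where PR1 was called higher, the value for LURP1 was 0.02 (SE 0.25, adjusted p = 0.959). Its interaction call was lost under the trend and robust options (adjusted p = 0.0819) and with the 3' minus 5' signal as a covariate (-0.64, adjusted p = 0.122), which gave a value of -1.78 at control. PCC1, a gene controlled by pathogens and the clock, was lower in AtHb1 in both treatments, at 11.5 to 11.8 in WT control against 10.7 to 10.8 in AtHb1 control. Its log2 fold change was -0.94 at control, within the limit, and -1.57 under hypoxia (adjusted p = 3.32e-08). PNP-A, a natriuretic-like peptide, was higher in AtHb1 by 1.11 at control and 1.02 under hypoxia, with calls that were lost at control without AtHb1 control replicate 2 (0.99) and under hypoxia without AtHb1 hypoxia replicate 2 (0.71) or 3 (0.95). Under hypoxia the PNP-A call was also lost on repeated quantile normalization (0.99) and on centring each array on its median (0.94). With the 3' minus 5' signal as a covariate the PNP-A values were -0.72 at control and 0.001 under hypoxia. SARD4, an enzyme of pipecolate synthesis, had values between -0.17 and 0.44, none called.

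The jasmonate and ethylene branch of the defence response is marked by the defensin gene PDF1.2. PDF1.2 had values between 0.12 and 0.40 and PDF1.2b between -0.21 and 0.09 over the 5 comparisons, and neither was called. The probe set of PDF1.2b may bind related transcripts. Of the 5 matched relatives of PR1, 4 were dim. The fifth, AT4G25780, was lower in AtHb1 at control by -0.40 (adjusted p = 0.00621) and lower after hypoxia in WT by -0.42 (adjusted p = 0.0085), both within the limit and opposite in sign to PR1.

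**Figure D3:**
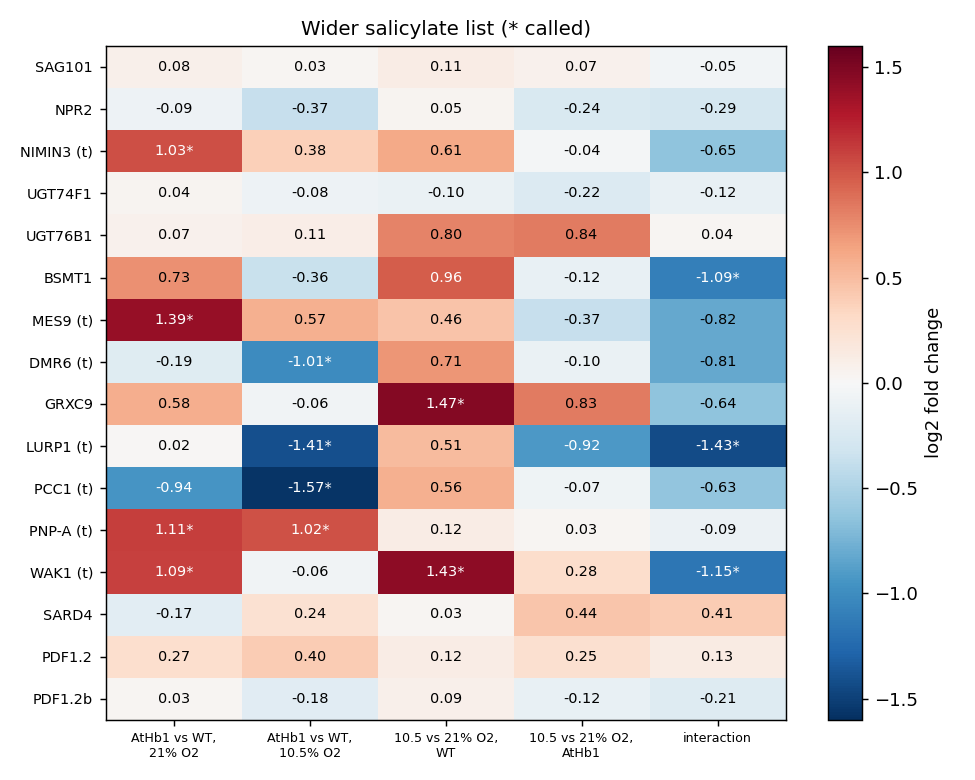
Log2 fold change from limma (colour and printed values) of the 16 matched genes of the wider salicylate list other than the relatives of PR1 (rows), in the 5 comparisons (columns). An asterisk marks a call and (t) a gene named only through the table of called genes. BSMT1, LURP1 and WAK1 carry a called interaction.

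The genes beside each PR gene on its chromosome gave a view of the surroundings. Of 10 neighbours each, 3 were matched for PR1, 7 for PR2 and 3 for PR5. Those named by the annotation numbered 2, 6 and 3, and none was called in any comparison, with values between -0.51 and 0.64. Over all probe sets, between 1.12% and 2.17% were called in a comparison, so few calls were to be had among so few genes. Some neighbours passed the p limit of limma alone. Between genotypes under hypoxia these included AT2G14660 at 0.64 (adjusted p = 1.03e-04) and AT3G57210 at -0.50 (adjusted p = 3.41e-04), where 40.6% of all probe sets passed it. LURP1 lies 2 genes from PR1. BG3, another beta-1,3-glucanase gene that lies 2 genes from PR2, was chosen after its values were seen. It read 11.18, 11.25 and 11.22 in WT control and 10.09, 9.93 and 10.24 in AtHb1 control. BG3 was called lower in AtHb1 at control at -1.13 (SE 0.15, adjusted p = 4.68e-05), opposite in sign to PR2, and its interaction was 0.23 (SE 0.21, adjusted p = 0.531). Both LURP1 and BG3 were named only through the table of called genes, so their calls are no independent evidence.

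The 5 genes whose values were most like the mean of the standardized PR values were found among 1190 probe sets that name 1 gene and whose group means spanned more than 1. The annotation named 703 of these, and the rest were named only through the table of called genes, PCR2 and TSPO among them. The search was therefore not an even one over the array. The Pearson correlation over the 12 arrays, given as a description of points that share groups and a normalization, was 0.95 for PCR2, 0.90 for AT1G19540, 0.89 for AT5G45310, 0.87 for AT1G35710 and 0.87 for TSPO. PCR2 encodes a membrane protein of metal tolerance, and its probe set may bind related transcripts. It read 5.43, 5.45 and 5.54 in WT control, and 7.21, 7.26 and 7.47 after hypoxia. In AtHb1 it read 6.49, 9.31 and 8.18 at control, and 6.41, 7.24 and 6.74 after hypoxia. It had the high replicate 2 and the low replicate 1 of the PR genes in both AtHb1 groups. TSPO, a membrane protein induced by abscisic acid, read 8.08, 7.73 and 7.90 in WT control, and 8.71, 8.88 and 8.73 after hypoxia. In AtHb1 it read 9.01, 9.68 and 9.52 at control, and 8.43, 8.82 and 8.62 after hypoxia. AT1G35710, a leucine-rich repeat receptor kinase gene, had a log2 fold change of 1.12 with hypoxia in WT and of -0.29 in AtHb1. All 5 were selected for this pattern, so their values are a description and no test of it.

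**Figure D4:**
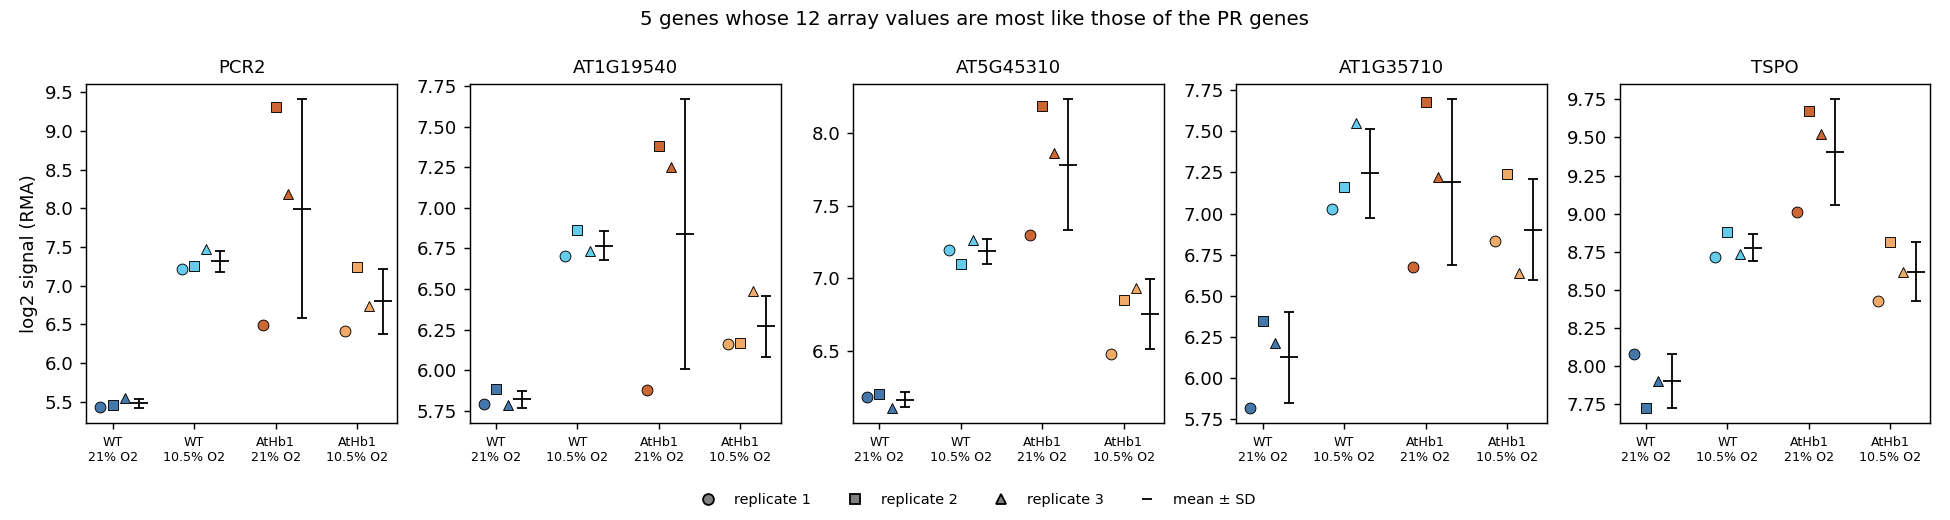
Log2 signal (RMA, vertical axis) of the 5 genes most like the PR genes on the 12 arrays, by genotype and oxygen (horizontal axis). Symbols are the replicates and bars the mean ± SD (n = 3). WT control is the lowest group mean for each of the 5 genes, and AtHb1 control is the highest for 4 of them.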

How the data were processed

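Transcripts of 12 samples of pooled siliques were measured on Affymetrix ATH1 arrays. The deposited values are log2 signals per probe set, which the authors made with MAS5 and RMA, with the version of RMA not given in the sources used here. They were used as deposited. No depth applies to arrays, and signal over background limits dim genes (mean log2 signal below 6 in each group). Of 22810 probe sets, 64 controls were set apart and 22746 tested. The annotation named 1 gene for 13436 of them, several for 503 and a gene outside the reference for 77, and 490 more were named only by the study's table. That table also holds the authors' ratios and p-values, which were not used.

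Each comparison used limma 3.58.1 in R 4.3.3 with 1 mean per group over all 12 arrays. Within a comparison the Benjamini-Hochberg method adjusted p over the 22746 probe sets. A call needed an adjusted p below 0.05 and a log2 fold change beyond 1 in either direction. Errors are moderated standard errors, and no exact test of 3 against 3 arrays can go below p = 0.1. By the study's methods the treatment runs were repeated to give biological replicates, each a pool of siliques. Scripts were tested on simulated data. Figures used Python 3.11.15 and matplotlib 3.10.9.

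Members and lists were chosen with earlier results of these data known. Named genes are the matched members, wider-list genes called in any comparison or otherwise the 2 with the largest change of each role, and the 5 genes most like the PR genes. Seed genes, BG3 and other neighbours were added after their values were seen. Gene order was taken from RefSeq TAIR10.1. The alternatives tried were calls without p adjustment, without a fold limit or with a limit of 1.5-fold, the compared groups fitted alone, limma's trend and robust options, array weights, dim probe sets left out, repeated quantile normalization, arrays centred on their medians, a block for the replicate number, and each array left out in turn. A 3' minus 5' covariate and the removal of AtHb1 replicates 1 or 2 of both treatments were added after seeing the data. Promoter sequences and motifs were not analysed here.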

Additional observations from a re-analysis of the deposited data

Results flagged for a closer look

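The genotype by hypoxia interaction was called in limma for PR1, PR2 and PR5 and for 3 genes of the wider list, where 2% of all probe sets were called. PR1, PR2, PR5, LURP1 and WAK1 were named through the study's table of called genes, as were PCR2 and TSPO below. The values were -1.89 for PR1, -1.63 for PR2 and -1.84 for PR5. In the wider list they were -1.09 for BSMT1, -1.43 for LURP1 and -1.15 for WAK1. The 5 genes selected for likeness to the PR genes also met these limits, but since they were chosen for the pattern their values are a description. They were -3.04 for PCR2, -1.51 for AT1G19540, -2.05 for AT5G45310, -1.41 for AT1G35710 and -1.66 for TSPO. Each value is the hypoxia response in AtHb1 minus that in WT. Groups of 3 arrays were too small to single out an outlying array by a formal rule.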

How the results depend on the processing

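The number of PR genes called was 2 for AtHb1 against WT at control, 0 under hypoxia, 2 for hypoxia in WT, 1 for hypoxia in AtHb1 and 3 for the interaction. Without a fold limit, and with a 1.5-fold limit, 3 were called at control and 1 between genotypes under hypoxia. Without a fold limit 33.2% and 40.6% of all probe sets passed in these comparisons, in this order. Fitting the compared groups alone and using array weights each gave 0 for hypoxia in AtHb1. The trend and robust options gave 1 for hypoxia in WT, 0 for hypoxia in AtHb1 and 0 for the interaction. The 3' minus 5' covariate gave 0, 3, 1, 0 and 0 in the order above, and turned the differences at control to -0.41 for PR1, -0.072 for PR5, -1.78 for LURP1 and -0.72 for PNP-A. Without AtHb1 replicate 2 of both treatments the counts were 1 at control, 1 under hypoxia and 0 for hypoxia in AtHb1. Without AtHb1 replicate 1 of both treatments 3 were called at control, and the other counts were unchanged. When each array was left out in turn the counts ranged from 1 to 3 at control, 0 to 1 between genotypes under hypoxia, 0 to 1 for hypoxia in AtHb1, 2 to 2 for hypoxia in WT and 3 to 3 for the interaction. The cause of these changes was not tested.

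Whether replicate numbers pair the samples was not settled. Deviations from group means correlated between -0.134 and 0.124 for same-numbered arrays and between -0.216 and 0.219 for other-numbered arrays. Correlations this small, from groups of 3 arrays, cannot show or exclude a pairing. With the number as a block the counts of PR genes called were 2, 0, 2, 1 and 3, as without it. Each PR gene had 1 probe set, so that averaging several gave no other value. Of 3240 values of single genes under the alternatives, 3036 kept their sign and call, 96 changed sign without a call under either setting, 79 lost a call, 25 gained one, and 4 reversed with a call under either setting. For the PR genes the 96 include PR2 at control with the covariate (-0.371) and PR2 for hypoxia in AtHb1 without AtHb1 control replicate 2 (0.093). Signal over background limits SAG101, NPR2, 4 relatives of PR1 and the pollen marker AT1G29140, which were dim. PNP-A also lay below 6 in WT control (5.70) and WT hypoxia (5.82), and PDF1.2 in every group but AtHb1 hypoxia (6.01).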
